A study of Macaca mulatta with 8 samples.

Results

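Interleukin-12 and interleukin-23 are secreted heterodimers that share a subunit, and the genes described here encode the subunits of this cytokine family and the receptor chain that both cytokines use. The members were taken by symbol from the deposited gene counts of primary rhesus macaque microglia: IL12B, IL12A, IL23A, IL27, EBI3 and IL12RB1. Of these 6 symbols, 5 have an entry among the 35432 Ensembl genes counted, and EBI3 has none under that symbol. IL12B, IL23A and IL12RB1 had enough reads to be among the 12131 genes tested, and IL12A and IL27 did not. In the RefSeq annotation of Mmul_10, IL12A lies on chromosome 2 (62222294 to 62228790, plus strand), IL12B on chromosome 6 (156734270 to 156749918, minus strand) and IL23A on chromosome 11 (55910501 to 55918611, plus strand). IL27 lies on chromosome 20 (27013667 to 27018890, minus strand) and IL12RB1 on chromosome 19 (17580899 to 17606504, minus strand).

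Microglia from the subcortical white matter of 4 adult macaques, of which R07110 and R12016 are male and R02046 and R14143 female, were kept in culture with M-CSF for 8 days. Cells of each donor received uLPS, an ultrapure lipopolysaccharide that engages TLR4, at 10 µg/mL for 16 h. They received it either alone or after MRS2578, an antagonist of the UDP receptor P2RY6, which was added at 5 µM and 1 h earlier. Each donor gave 1 library per condition, 8 in all. No library of unstimulated cells or of MRS2578 alone is among them, so all values below are levels in uLPS-exposed cells, and the labels do not say whether the cells with uLPS alone received the solvent of MRS2578, although the methods of the study mention solvent controls for its assays with this compound.

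In this family a helical alpha subunit pairs with a beta subunit that resembles a soluble cytokine receptor. IL12B encodes p40, the beta subunit of both IL-12, with p35 from IL12A, and IL-23, with p19 from IL23A. EBI3 is the beta subunit of IL-27, with p28 from IL27. IL12RB1 binds p40 and serves in the receptors for IL-12 and IL-23, which signal through TYK2 and JAK2 to STAT4 and STAT3. Macrophages and dendritic cells are known sources of these cytokines, IL-12 drives interferon-gamma production by lymphocytes, and IL-23 sustains interleukin-17-producing T cells.

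IL12B and IL23A are the ligand subunits with enough reads to compare, and their proximal promoters are shown for that reason. Each run is the 200 bases before the start of the RefSeq transcript in Mmul_10, from chr6:156749919-156750118 on the minus strand for IL12B (NM_001044725.1) and chr11:55916898-55917097 on the plus strand for IL23A (NM_001194669.1). The gene model of IL12B holds 2 transcripts and that of IL23A 3, and the start used for IL23A lies inside the span of the gene given above, so each window belongs to 1 of several transcripts. Capitals mark the only matches of 5 short motifs searched on both strands.
IL12B: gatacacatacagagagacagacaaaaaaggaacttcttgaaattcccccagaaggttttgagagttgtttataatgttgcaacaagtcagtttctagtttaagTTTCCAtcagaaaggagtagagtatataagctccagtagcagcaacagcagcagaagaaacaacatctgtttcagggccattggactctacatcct
IL23A: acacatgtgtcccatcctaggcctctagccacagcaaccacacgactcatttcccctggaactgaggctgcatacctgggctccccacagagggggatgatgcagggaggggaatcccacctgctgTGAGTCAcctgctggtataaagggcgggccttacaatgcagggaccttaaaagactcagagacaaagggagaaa
The capitals in IL12B are the NFAT core TGGAAA, read on the opposite strand, 96 to 91 bases before the start. This motif is in 12.7% of 20783 macaque promoter windows of the same length. The capitals in IL23A are an AP-1 type motif, TGANTCA, 74 to 68 bases before the start, which 4.04% of the windows hold. Neither window holds the form of the NF-kB type motif that was searched (GGG and TTTCC with any 2 bases between, in 1.06% of windows). Other forms of this motif were not searched, so its absence is not shown, and the study states that the promoter of IL12B has binding sites for NF-kB. Neither window holds the ISRE type motif searched (GAAA and GAAA with any 2 bases between, 2.43%) or GAGGAA (PU.1 type, 17.5%). These matches describe the letters only, since no binding was measured.

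The libraries of R02046 carry contradictory condition labels. In the study's own table of CPM values, 6 of the 8 columns are proportional to the library with the same label, and the columns of R02046 are proportional to the library with the opposite condition. The sample labels were kept for R02046, and the fitted values of the members that passed the filter, and of the pathway genes named, are also given with its libraries exchanged and without this donor. Total counts per library ran from 9231109 to 32790348, so that a count of 0 allows a level of up to 3 counts, or 0.0913 to 0.320 CPM (counts scaled to the size of the library), for counting error only. No library was a duplicate of another, with at least 15.8 for the chi-square statistic of any pair divided by its degrees of freedom. Markers of microglia and macrophages summed to 3788 to 5603 CPM in every library, with 11 of 14 listed genes among those tested. CX3CR1, at 0.0508 to 2.21 CPM, and TMEM119, at 0 to 0.316 CPM, were near 0, and C1QA has no entry.

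IL12B, which encodes p40, was lower with MRS2578 in 3 of 4 donors by differences that ranged widely and did not pass the test, and its level also differed widely between donors. With uLPS alone, it was at 27.8 CPM in R07110, 322 CPM in R12016, 39.9 CPM in the library so labelled of R02046 and 67.3 CPM in R14143. With uLPS and MRS2578, it was at 4.69, 19.7, 84.4 and 39.7 CPM in the same order of donors. The level was lower with MRS2578 in 3 donors and higher in R02046 as labelled, and the values of the 2 conditions overlapped. The counts behind the widest difference were 5042 and 312 in R12016.

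Within donors, the log2 CPM of IL12B differed between uLPS with MRS2578 and uLPS alone by -2.54 in R07110, -4.02 in R12016 and -0.76 in R14143, and by 1.08 in R02046 as labelled. The donors also differed in size, with the difference in R12016 the widest and that in R14143 the narrowest. Fitted by edgeR's quasi-likelihood method and blocked by donor, IL12B had a log2 fold change of -1.57 (SE 0.83, n = 4 donors, adjusted p = 0.877). With R02046 exchanged it was -2.05 (SE 0.51, adjusted p = 0.109), and without R02046 it was -2.44 (SE 0.62, n = 3 donors, adjusted p = 0.211). Without R12016 and with the labels kept it was -0.68. None of these passed an adjusted p of 0.05. IL12B had the 5th lowest fold change of 12131 genes, both as labelled and with R02046 exchanged. It was also among the most variable genes, at rank 107 by the SD of log2 CPM over the 8 libraries. Variable genes reach extreme fold changes more easily, but this SD includes the differences between the conditions, so the ranks are not independent. In bulk RNA, fewer cells making a transcript and less of it per cell cannot be told apart.

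**Figure D1:**
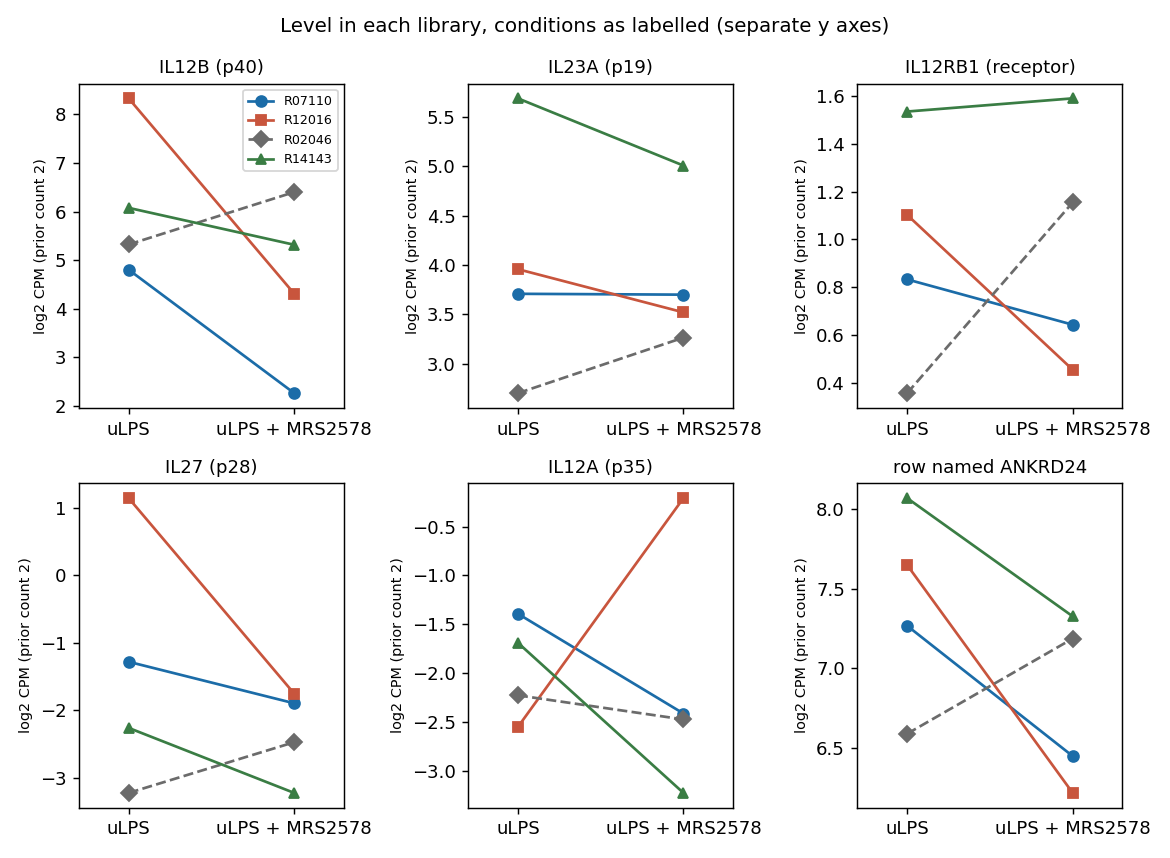
Each panel plots 1 gene's log2 CPM (prior count 2, y axis, a separate scale per panel) in uLPS alone and in uLPS with MRS2578 (x axis), and each line joins the 2 libraries of 1 donor, dashed for R02046 as labelled. IL12B was at 27.8 and 4.69 CPM in R07110 and at 322 and 19.7 CPM in R12016, whereas IL23A was at 13.0 and 12.9 CPM in R07110.

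The plot of levels by donor places the shared subunit beside the private ones, and IL23A, which encodes p19, kept closer to its donor's level. It was at 13.0 CPM in R07110, 15.4 CPM in R12016, 6.40 CPM in R02046 as labelled and 51.5 CPM in R14143 with uLPS alone. With MRS2578, the levels were 12.9, 11.4, 9.50 and 32.1 CPM in the same order. R14143 had the highest level in both conditions and R02046 the lowest, and the conditions overlapped. The donor means of IL23A spanned 2.37 on the log2 scale, and its median absolute difference within donors was 0.50. For IL12B, these values were 2.79 and 1.81.

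The log2 difference of IL23A within donors was -0.01 in R07110, -0.44 in R12016, -0.68 in R14143 and 0.56 in R02046 as labelled. Its fitted log2 fold change was -0.18 (SE 0.21, adjusted p = 0.927 by edgeR). With R02046 exchanged it was -0.42 (SE 0.15, adjusted p = 0.217), and without R02046 it was -0.38 (SE 0.16, adjusted p = 0.392). IL23A overlaps PAN2 on the opposite strand over 1108 bases (Mmul_10, chromosome 11), and the strand setting of the counting is not given in the sources used here.

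IL12A, which encodes p35, the partner of p40 in IL-12, was barely detected. Its counts with uLPS alone were 9 in R07110, 1 in R12016, 1 in R02046 as labelled and 4 in R14143. With MRS2578 they were 2, 12, 1 and 0. Both conditions held 15 counts in all, and the donor R12016 alone held most of those with MRS2578. Its ratio of MRS2578 to uLPS, 11.9, had a 95% interval of 1.76 to 508 for counting error only. With no filter on low counts, the only setting in which it was fitted, the log2 fold change of IL12A was 0.06 as labelled, with an SE of 0.96 (adjusted p = 0.997 by edgeR).

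IL27, which encodes p28, was also low, with 45 counts over the uLPS libraries and 8 over those with MRS2578. The counts with uLPS alone were 10 in R07110, 33 in R12016, 0 in R02046 as labelled and 2 in R14143, against 4, 3, 1 and 0 with MRS2578. Only the donor R12016 had a ratio whose 95% counting interval excluded 1, at 0.0900 (0.0177 to 0.287). It is the donor in which IL12B was highest with uLPS alone and differed most. With no filter on low counts, IL27 had a fitted log2 fold change of -2.29 as labelled (SE 0.83, adjusted p = 0.879 by edgeR). IL27 overlaps APOBR on the opposite strand over 122 bases.

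EBI3, the beta subunit of IL-27, could not be assigned an entry by its symbol. The gene ENSMMUG00000028928 is called ANKRD24 in the files, and the study's own table lists the same identifier under both ANKRD24 and EBI3. In the RefSeq annotation of Mmul_10 these are neighbours on the plus strand of chromosome 19, ANKRD24 from 4088851 to 4134068 and EBI3 from 4137568 to 4146530, with 3499 bases between them. Which of them the reads of this entry came from was not tested, and it is not counted as a member.

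The ANKRD24 entry was at 154 CPM in R07110, 201 CPM in R12016, 96.1 CPM in R02046 as labelled and 269 CPM in R14143 with uLPS alone. With MRS2578 it was at 87.2, 74.2, 146 and 160 CPM in the same order. It was lower with MRS2578 in 3 donors and higher in R02046 as labelled, with overlapping conditions. Its fitted log2 fold change was -0.61 (SE 0.30, adjusted p = 0.877 by edgeR) as labelled. With R02046 exchanged it was -0.90 (SE 0.14, adjusted p = 0.0427), which passed the threshold, and it was -1.0 (SE 0.16, adjusted p = 0.134) without R02046. With edgeR's earlier quasi-likelihood estimation and R02046 exchanged, the adjusted p was 0.0540. With R02046 exchanged, the adjusted p was also 0.303 without R07110, 0.0897 without R12016, 0.0156 without R14143 and 4.4e-06 in the likelihood ratio test, so the call rested on the estimation and on the donors kept.

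IL12RB1, the receptor chain that binds p40, was low in every library, with overlapping conditions. With uLPS alone it was at 1.67 CPM in R07110, 2.04 CPM in R12016, 1.17 CPM in R02046 as labelled and 2.79 CPM in R14143. With MRS2578 it was at 1.45, 1.26, 2.12 and 2.91 CPM. The counts per library ran from 11 to 55. The fitted log2 fold change was -0.04 (SE 0.30, adjusted p = 0.991 in edgeR's test), with -0.31 (SE 0.27, adjusted p = 0.618) after the exchange and -0.22 (SE 0.29, adjusted p = 0.794) without R02046. Lymphocytes, which are known to carry this chain, were not evident from their markers other than CD8A. Of 12 lymphocyte markers, 1, CD8A, was among the genes tested, and CD3G, NKG7 and KLRD1 were at 0 in every library. The list summed to 6.25 to 50.1 CPM with uLPS alone and 6.26 to 51.2 CPM with MRS2578. Most of this sum was CD8A, at 5.69 to 50.7 CPM, and the next highest marker, GZMB, reached 0.695 CPM.

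**Figure D2:**
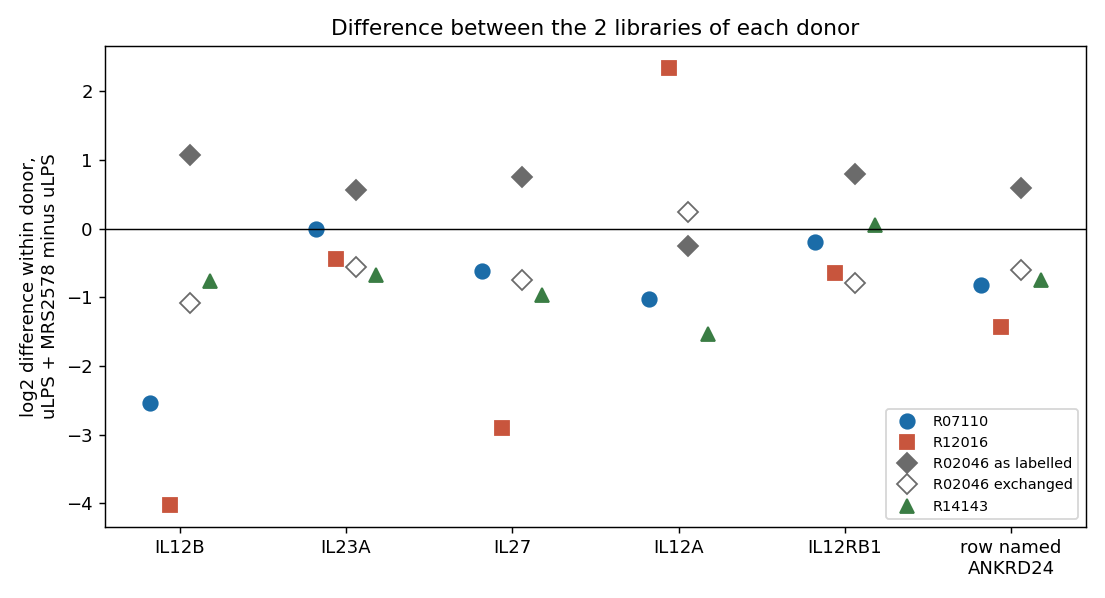
Points give the log2 CPM with uLPS and MRS2578 minus that with uLPS alone (y axis) for each gene (x axis) and donor, with R02046 shown as labelled (filled diamonds) and exchanged (open diamonds). IL12B lay between -0.76 and -4.02 in R07110, R12016 and R14143, and IL23A between -0.01 and -0.68.

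Of the 3 members tested, 0 passed an adjusted p of 0.05 as labelled, where 0% of 12131 genes passed and 624 genes (5.14%) had an unadjusted p under 0.05. With R02046 exchanged, 0 of the 3 passed and 75 genes (0.618%) did. With R02046 exchanged, IL12B alone of the 3 passed when R14143 was left out, where 7.58% of genes passed, and also in edgeR's likelihood ratio test, where 5.08% did. Without R02046, 0 of the 3 and 0 of 12295 genes passed, and 1670 genes (13.6%) had an unadjusted p under 0.05. IL12B and IL23A were lower with MRS2578 in all of R07110, R12016 and R14143, the donors whose labels are not in conflict, as were 19.9% of the genes tested. IL12RB1 was lower in R07110 and R12016 and not in R14143. The plot of differences within donors shows the same, with IL12B farthest from 0 in R07110 and R12016.

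The comparison of shared and private subunits asks whether p40 moved apart from its partners within a donor. Gene length cancels in such a change. The CPM of IL12B was 2.13 times that of IL23A in R07110 with uLPS alone and 0.369 times with MRS2578. In R12016 it was 20.7 times and 1.73 times, and in R14143 it was 1.31 times and 1.24 times. In R02046 as labelled, it was 6.15 times with uLPS alone and 8.79 times with MRS2578. The ratio was thus lower with MRS2578 in R07110 and R12016, nearly equal in R14143, and higher in R02046 as labelled.

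**Figure D3:**
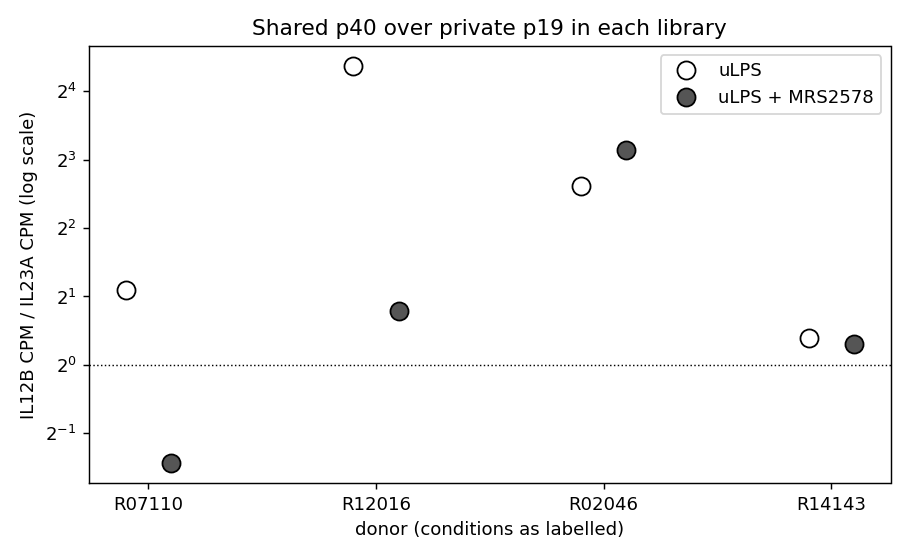
The ratio of IL12B CPM to IL23A CPM (y axis, log scale) is plotted for the libraries of each donor (x axis) with uLPS alone (open circles) and with uLPS and MRS2578 (filled circles), and the dotted line marks equal CPM. The ratio went from 2.13 to 0.369 in R07110 and from 20.7 to 1.73 in R12016, and stayed at 1.31 and 1.24 in R14143.

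The plot of the ratio of p40 to p19 shows how far the donors differed. The change in the log2 difference IL12B minus IL23A was -1.42 ± 1.95 (SD, n = 4 donors), lower in 3 donors and higher in 1, and a two-sided exact sign-flip permutation test over donors gave p = 0.375. With R02046 exchanged it was -1.68 ± 1.66 and lower in 4 of 4 donors, with exact p = 0.13 and 0.25 after adjustment over the 2 pairs compared. An exact p of 0.13 is the smallest that 4 donors allow, so this test cannot reach 0.05 here. The change for IL12B minus IL12A was -1.45 ± 3.50 (exact p = 0.625), -0.87 ± 4.65 with a prior count of 0.25 (exact p = 0.875), and -2.11 ± 3.02 with R02046 exchanged (exact p = 0.25). The latter rests on the few IL12A counts, and its donor values spanned -6.36 (R12016) to 1.33 (R02046 as labelled).

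Levels can be compared between genes only per length, and per kilobase of exon the mean level of p40 was ahead of those of its partners. Per kilobase of exon and with uLPS alone, IL12B was at 42.7 ± 52.1 CPM (SD, n = 4), IL23A at 6.88 ± 6.47 and IL12RB1 at 0.642 ± 0.228. IL27 was at 0.526 ± 0.832 CPM per kilobase and IL12A at 0.207 ± 0.121. IL12B exceeded IL23A per kilobase in 7 of 8 libraries, the exception being R07110 with MRS2578, although their ranges over donors overlapped. The order of IL12B and IL23A can depend on the length used. The IL23A model joins 3 transcripts of 1031 to 2266 bases into 3136 exonic bases, and a shorter length would raise its level. No level per transcript was computed. IL23A exceeded IL12RB1 in 8 of 8 libraries, by 4.28 to 17.6 times. IL12RB1 exceeded IL27 in 7 of 8 and IL12A in 7 of 8, and IL27 and IL12A could not be ordered. The mean values had the same order per kilobase of coding sequence, which matters because the IL12A model holds 782 exonic bases, of which 759 are coding, and so little untranslated sequence.

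Among the genes tested, the patterns most like that of IL12B over the 8 libraries were those of SUCNR1, the succinate receptor, LAD1, the anchoring filament protein ladinin, and IL2RA, the alpha chain of the interleukin-2 receptor. The measure was the root mean square difference of log2 CPM after each gene was centred on its own mean, which was 0.80 for SUCNR1, 0.86 for LAD1 and 0.97 for IL2RA. SUCNR1 was at 17.8 and 4.61 CPM in R07110, 51.4 and 12.1 CPM in R12016, 11.5 and 22.5 CPM in R02046 as labelled, and 29.7 and 24.4 CPM in R14143, with uLPS alone given first. Like IL12B, it was lower with MRS2578 in 3 donors, with the narrowest difference in R14143. The same donors and libraries underlie all these patterns, and no test was made of them.

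The summed level of listed markers of dendritic cells, another source of IL-12, was highest in the library where IL12B was highest. Most of that sum was 1 gene, CCR7, and the markers did not move together. Of 9 dendritic cell markers, 4 were tested, FLT3 and XCR1 were at 0 in every library, and the summed level in R12016 was 100.2 CPM with uLPS alone and 34.3 CPM with MRS2578. In the other donors the sum ran from 10.5 to 21.2 CPM over both conditions, and in R14143 it was 21.2 CPM with uLPS alone and 14.4 CPM with MRS2578. Most of it in R12016 came from CCR7, a chemokine receptor also made by activated myeloid cells, at up to 82.0 CPM. In R12016 the log2 difference with MRS2578 was -2.05 for CCR7 and -3.31 for LAMP3, but -0.20 for BATF3 and 0.17 for ZBTB46. CD1C, CLEC9A and CLEC10A reached at most 1.62, 0.439 and 0.253 CPM in any library. The part of these markers in the level of IL12B was not tested. Without R12016, the fold change of IL12B was -0.68 as labelled and -1.37 with R02046 exchanged (adjusted p = 0.199 in edgeR's test).

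The list of other genes of the pathway held 36 genes, of which 28 were tested and 0 passed as labelled, with R02046 exchanged or without R02046. As labelled, 22 had a negative and 6 a positive log2 fold change, with a median of -0.12 against -0.01 for all genes tested. With R02046 exchanged these were 20 and 8, with a median of -0.28 against 0.00 for all genes. In R07110, R12016 and R14143 together, 13 of the 28 were lower in all and 0 were higher in all, where 19.9% and 17% of all genes tested were.

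Among receptors, kinases and STATs, 9 of 10 were tested. STAT4, the transcription factor that IL-12 activates, held only 0 to 67 counts per library. It had the lowest log2 fold change, -1.52 (SE 0.60, adjusted p = 0.877 by edgeR). Its value with R02046 exchanged was -1.88 (SE 0.43, adjusted p = 0.0841), and without R02046 it was -1.83 (SE 0.43, adjusted p = 0.191). TYK2, the kinase bound to IL12RB1, was at -0.24 (SE 0.12), with -0.29 after the exchange and -0.35 without R02046. As labelled, the highest values were 0.36 (SE 0.50) for IL12RB2, the second chain of the IL-12 receptor, and 0.13 (SE 0.12) for JAK1. Both turned negative with R02046 exchanged, at -0.46 for IL12RB2 and -0.11 for JAK1, and without R02046 they were at -0.07 and 0.01. IL23R, the second chain of the IL-23 receptor, had 0 or 1 count per library.

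Of 14 transcription factors known at the IL12B or IL23A promoters, 13 were tested. IRF1 had the lowest log2 fold change, -0.46 (SE 0.19, adjusted p = 0.877 in edgeR's test), and was at -0.60 (SE 0.11, adjusted p = 0.0599) with R02046 exchanged and -0.70 (SE 0.11, adjusted p = 0.133) without R02046. CEBPB followed at -0.45 (SE 0.38), and the highest were NFATC1 at 0.09 (SE 0.17) and MAF, a repressor of IL12B, at 0.08 (SE 0.23). With R02046 exchanged, CEBPB was at -0.58, NFATC1 at 0.25 and MAF at 0.13, and without R02046 they were at -0.70, 0.22 and 0.14. Within donors, the log2 CPM of CEBPB differed by 0.38 in R07110, -0.53 in R12016, -1.98 in R14143 and 0.25 in R02046 as labelled. NFATC2, with 1 to 66 counts per library, did not pass the filter on low counts as labelled. Its log2 CPM differed with MRS2578 by 1.19 in R07110, 2.95 in R12016, 2.40 in R14143 and -0.39 in R02046 as labelled. The sign was opposite to that of IL12B in each donor. Without R02046, where NFATC2 passed the filter, its fitted log2 fold change was 2.34 (SE 0.53, adjusted p = 0.181 by edgeR).

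The partners and counter-regulators were all 6 tested. IL6, which encodes interleukin-6, had the lowest log2 fold change, -1.31 (SE 0.40, adjusted p = 0.877 in edgeR's test), -1.47 (SE 0.27, adjusted p = 0.0599) with R02046 exchanged and -1.82 (SE 0.18, adjusted p = 0.12) without R02046. IL10, which restrains IL12B in macrophages, was at -0.59 (SE 0.50) and, with R02046 exchanged, at -0.75, and it did not pass the filter without R02046. IL18, which acts with IL-12 on lymphocytes, was at 0.11 (SE 0.21), with 0.35 after the exchange and 0.30 without R02046. The products of lymphocytes that respond to IL-12 and IL-23 were not detected at a level to test. IFNG and IL22 had 0 counts in every library, and IL17A, TBX21 and IL17F had at most 1, 2 and 5.

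**Figure D4:**
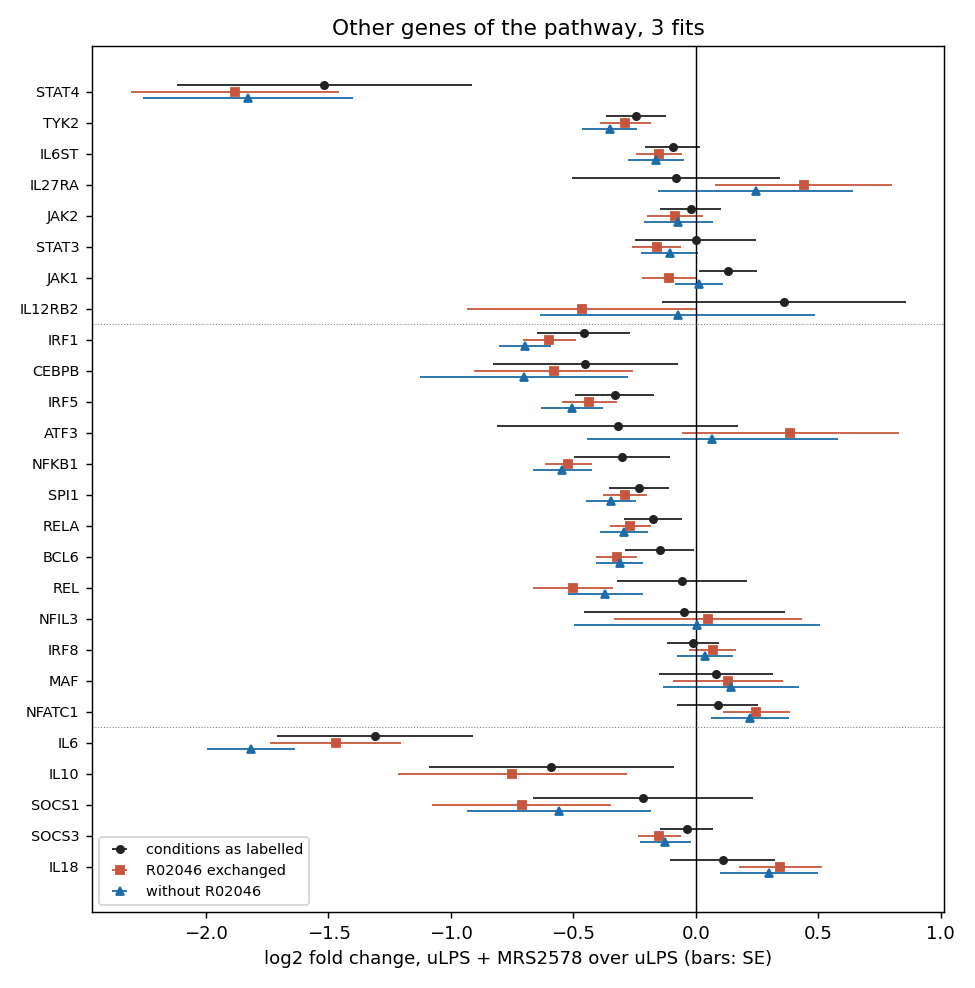
The log2 fold change of uLPS with MRS2578 over uLPS alone (x axis, bars are the SE) is drawn for the tested genes of the pathway list that are reported here (y axis), grouped by dotted lines into receptors, kinases and STATs, transcription factors, and partners, from 3 fits. STAT4, at -1.52 as labelled from 0 to 67 counts per library, and IL6, at -1.31, lay lowest. IL10 has no value without R02046 because it did not pass the filter there. NFATC2, which did not pass the filter as labelled, is not drawn.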

How the data were processed

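The deposited values are whole-number read counts per Ensembl gene, made by the authors with HTSeq from reads in exons of Mmul_10. The methods of the study name fastp and STAR before it, whereas the submitters' processing notes list Trimmomatic 0.30, TopHat2 2.0.14, SAMtools 1.3 and HTSeq 0.6.1p1. The annotation release and strand setting are not given in the sources used here. Multi-mapped reads were not counted, which can lower similar genes.

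Counts were filtered by filterByExpr (minimum count 10), scaled by TMM and tested in R 4.3.3 with edgeR 4.0.16 (limma 3.58.1), using the quasi-likelihood F-test, donor as a block, Benjamini-Hochberg adjustment over all genes tested and a threshold of 0.05. The current form of the quasi-likelihood estimation was chosen over the package's default, earlier form after both had been seen. Both are reported. The script was tested on simulated data with 200 changed genes. SE is implied by the test statistic, and log2 CPM has a prior count of 2. The libraries of a donor come from 1 animal, and their deviations from the condition means correlated at 0.458 (R02046) to 0.602 (R07110). Changes in subunit pairs were tested by exact sign-flip permutation. Alternatives included DESeq2 1.42.0, the likelihood ratio test, other scalings, filters and prior counts, no block, each donor left out, and R02046 exchanged.

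The members, gene lists and tests were chosen with earlier results of these data known. The genes named are the members, the pathway list (per group, the 2 highest and 2 lowest fold changes, any gene passing in a fit printed, and those under the filter) and, for each tested member whose log2 CPM had an SD of at least 1, the 3 genes with the most similar levels. Some genes of the pathway list are counted but not reported here by name. NFATC2 was given values after they were seen. The tests of pairs with EBI3 were not run.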

Additional observations from a re-analysis of the deposited data

Results flagged for a closer look

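In 20 groups of 4 values, 4 held a library far from the other 3 by Dixon's criterion. It marks about 1 in 20 groups by chance where values are normally distributed. The 4 groups marked hold CPM that was not put on a log scale, for which that rate need not hold. IL12B with uLPS alone was at 322 CPM in R12016, where the other libraries so labelled held 27.8 to 67.3 CPM. IL27 in the same library was at 2.10 CPM. IL12A with uLPS and MRS2578 was at 0.758 CPM in R12016, from 12 counts. IL23A with uLPS and MRS2578 was at 32.1 CPM in R14143.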

How the results depend on the processing

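As labelled, 0 genes passed in edgeR's quasi-likelihood test (624 at an unadjusted p under 0.05), and the count was 0 under each donor left out, other scaling or filter, and the earlier estimation. It was 5 with the likelihood ratio test (NCOA7, C2H3orf18, HSPA12A, LGR4 and 1 gene without a symbol) and 1 with DESeq2's Wald test (that gene again). With R02046 exchanged it was 75, 39 with the earlier estimation and 616 with the likelihood ratio test. With R02046 exchanged it was also 0 without R07110, 5 without R12016 (HK3, C1QTNF1, IL2RA, TLR2 and CACNA1G) and 919 without R14143, so the count rested on which donors were kept. The small lists were named after their values were seen.

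The number of members that passed was 0 except in 2 settings, both with R02046 exchanged. It was 1, IL12B, without R14143 (log2 fold change -2.57, adjusted p = 0.0216) and 1, IL12B, with the likelihood ratio test (-2.07, adjusted p = 0.00228). In these settings, 8 pathway genes passed without R14143, where 7.58% of all genes tested passed and STAT4 was not tested. Among the 8 were REL, NFKB1, IRF1, IRF5, BCL6 and IL6, all lower, and ATF3, which was higher. With the likelihood ratio test, 5 of the 28 tested passed (STAT4, NFKB1, IRF1, IRF5 and IL6, all lower), where 5.08% of all genes did. Without the replicate block, 0 genes passed and IL12B was at -1.63 as labelled. With each donor left out, the log2 fold change of IL12B ran from -2.44 to -0.68, that of IL23A from -0.38 to 0.017 (without R14143) and that of IL12RB1 from -0.22 to 0.13 (above 0 without R07110 or R12016). The change for IL12B minus IL23A ran from -2.06 to -0.70, and that for IL12B minus IL12A from -2.37 to 0.19 (without R12016). The causes of these changes were not tested. Depth limits IL12A and IL27, whose counts per library were at most 12 and 33.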
